A study of Mus musculus with 4 samples.

Results

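The FOXO module of the mouse ovary was read here through 8 genes chosen by symbol, namely the transcription factor genes Foxo1 and Foxo3 and 6 genes that FOXO factors or growth arrest are known to raise, Pik3ip1, Sesn1, Sesn3, Txnip, Ccng2 and Irs2. They are 8 of the 32285 genes in the deposited single-cell matrices, and all 8 had UMIs in all 4 libraries. Ovaries came from 8-week-old female mice of the same litter, in estrus. The control group, Fosl2F/F, carried floxed alleles of Fosl2, which encodes a subunit of the AP-1 transcription factor, and no Cre. The Fosl2cKO group carried the same floxed alleles together with Cyp19a1-Cre, a Cre driven from the promoter of the aromatase gene, which is active in granulosa cells (GCs). Each group had 2 libraries made with a 3′ droplet kit. The sample size is given as 2 per group, without saying in words that each library is 1 mouse, so every p-value measures the spread between these libraries only. Values in groups of 4 are given in the order Fosl2F/F 1, Fosl2F/F 2, Fosl2cKO 1 and Fosl2cKO 2.

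FOXO proteins are held in the cytoplasm when insulin, IGF or FSH signalling activates PI3K and AKT, and enter the nucleus when that signalling falls. There they raise genes that slow the cell cycle, limit glucose uptake and restrain growth, and some of these genes act back on the same pathway. In the ovary Foxo1 is known as a gene of the granulosa cells of growing follicles, while Foxo3 is best known for holding primordial oocytes at rest. Messenger RNA levels do not report where the FOXO proteins are, so the module is described here by transcript only.

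The cells kept after filtering numbered 8150, 19575, 6760 and 7053, with 104303269 to 111314200 UMIs per library. Fosl2F/F 2 stood apart, with a median of 3655 UMIs per cell where the other libraries had 11177 to 12465. Pairs of libraries shared 15 to 81 cell barcodes. Granulosa-like (GC-like) cells numbered 4574, 6631, 2202 and 2399, and fell into states called mural-like, mitotic-like, mitotic-antral-like, cumulus-like and atretic-like from markers that excluded the 8 genes, which were also left out of the features that formed the clusters. Each marker of these 5 states was highest in the state it names. Cluster 4, led by Cited1 and Amh, and cluster 7, led by Rrad and Dgkb, stayed unnamed among GC-like cells, and cluster 7 was shallow. Its median mitochondrial share was 7.31%, 5.44%, 6.13% and 5.74%, where all GC-like cells had 3.45%, 3.26%, 3.16% and 2.99%. Dgkb and Asb4, among its leading genes, also led clusters outside granulosa cells. The part of these in the levels of cluster 7 was not tested. The shares of the states differed between libraries. The mural-like share of GC-like cells was 30.8%, 14.7%, 16.2% and 12.2%, and the cumulus-like share 9.44%, 31.9%, 20.3% and 14.6%. Levels are in CPM, the counts of a gene scaled to a fixed total of UMIs of all genes, from the pooled cells of each class and library. The targeted gene Fosl2 stood at 161, 167, 167 and 115 CPM in GC-like cells, so the library labelled Fosl2cKO 1 was not below the controls. The tags lie near the 3′ end of transcripts, and whether they fall within the floxed part was not tested. At the protein level the study reports depletion of Fosl2 in GCs of Fosl2cKO mice by immunoblot. Granulosa RNA outside its own cells was gauged with Inha, the inhibin alpha gene, whose CPM in the 13 other classes was 1.18% to 18.5% of its CPM in GC-like cells. Each member exceeded that share in every library in 13 of 13 classes, except Pik3ip1, which did so in 11. By the summed level of 11 granulosa markers the luteal-like share was higher, at 7.31%, 16.0%, 23.7% and 15.3%, and Txnip in Fosl2F/F 2 (11.99%) and Foxo1 in Fosl2cKO 2 (14.9%) then lay below it in that class.

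On GRCm38 the members do not overlap one another, and Sesn1 and Foxo3 lie near each other on chromosome 10. On the plus strand are Foxo1 at chr3:52268336-52353221, Pik3ip1 at chr11:3330401-3342971, Sesn1 at chr10:41809935-41908424 and Sesn3 at chr9:14275067-14333101. Txnip at chr3:96557957-96561883 and Ccng2 at chr5:93267257-93276231 are also on the plus strand. Foxo3 at chr10:42181841-42276755 and Irs2 at chr8:10984681-11008458 are on the minus strand. A gene of the same strand overlaps Foxo1 (Gm38034) and Sesn1 (9930024M15Rik), so part of their UMIs could belong to either. Genes of the opposite strand overlap Foxo1, Pik3ip1, Txnip and Irs2. All 8 members matched RefSeq promoter windows on GRCm38.p6, 250 bases before to 50 bases after a start, and Sesn1 had 2 starts, which gave 9 windows. The core letters of the FOXO site, GTAAACA, searched on both strands, were present in 2 of them, the Txnip window and 1 Sesn1 window, where 3.65% of all 32851 windows hold them. Both stretches are shown with the core in capitals, since these are the members whose windows hold it. The Txnip stretch is the whole 250 bases before the start, chr3:96557707-96557956 on the plus strand, with the core at chr3:96557836-96557842. The Sesn1 stretch, chr10:41810585-41810613 on the plus strand, lies just after the start and holds the core as its reverse complement at chr10:41810596-41810602.
Txnip: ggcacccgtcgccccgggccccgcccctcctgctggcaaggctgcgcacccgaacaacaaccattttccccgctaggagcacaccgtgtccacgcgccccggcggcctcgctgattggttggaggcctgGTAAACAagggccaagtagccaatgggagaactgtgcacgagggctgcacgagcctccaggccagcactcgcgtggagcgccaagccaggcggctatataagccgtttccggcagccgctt
Sesn1: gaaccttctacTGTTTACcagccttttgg
The E-box CACGTG was found in the Irs2 window and in 7.15% of all windows. The AP-1 letters TGANTCA, searched on both strands, were in none of the 9 windows and in 7.808% of all windows. These are letters in a window and say nothing of binding.

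Within granulosa cells the members did not share 1 state pattern. Pik3ip1, which encodes an inhibitor of the PI3K catalytic subunit, was the member with the widest range among GC states, 169, 126, 122 and 121 CPM in atretic-like cells where mural-like cells had 15.1, 10.8, 18.9 and 13.0 CPM. Txnip and Irs2 were also highest in atretic-like cells in all 4 libraries among the 5 named states, whereas Ccng2 was highest in mural-like cells in 3 libraries and in mitotic-like cells in Fosl2cKO 2. Because the states are clusters of the same cells, these levels are a description and carry no test.

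**Figure D1:**
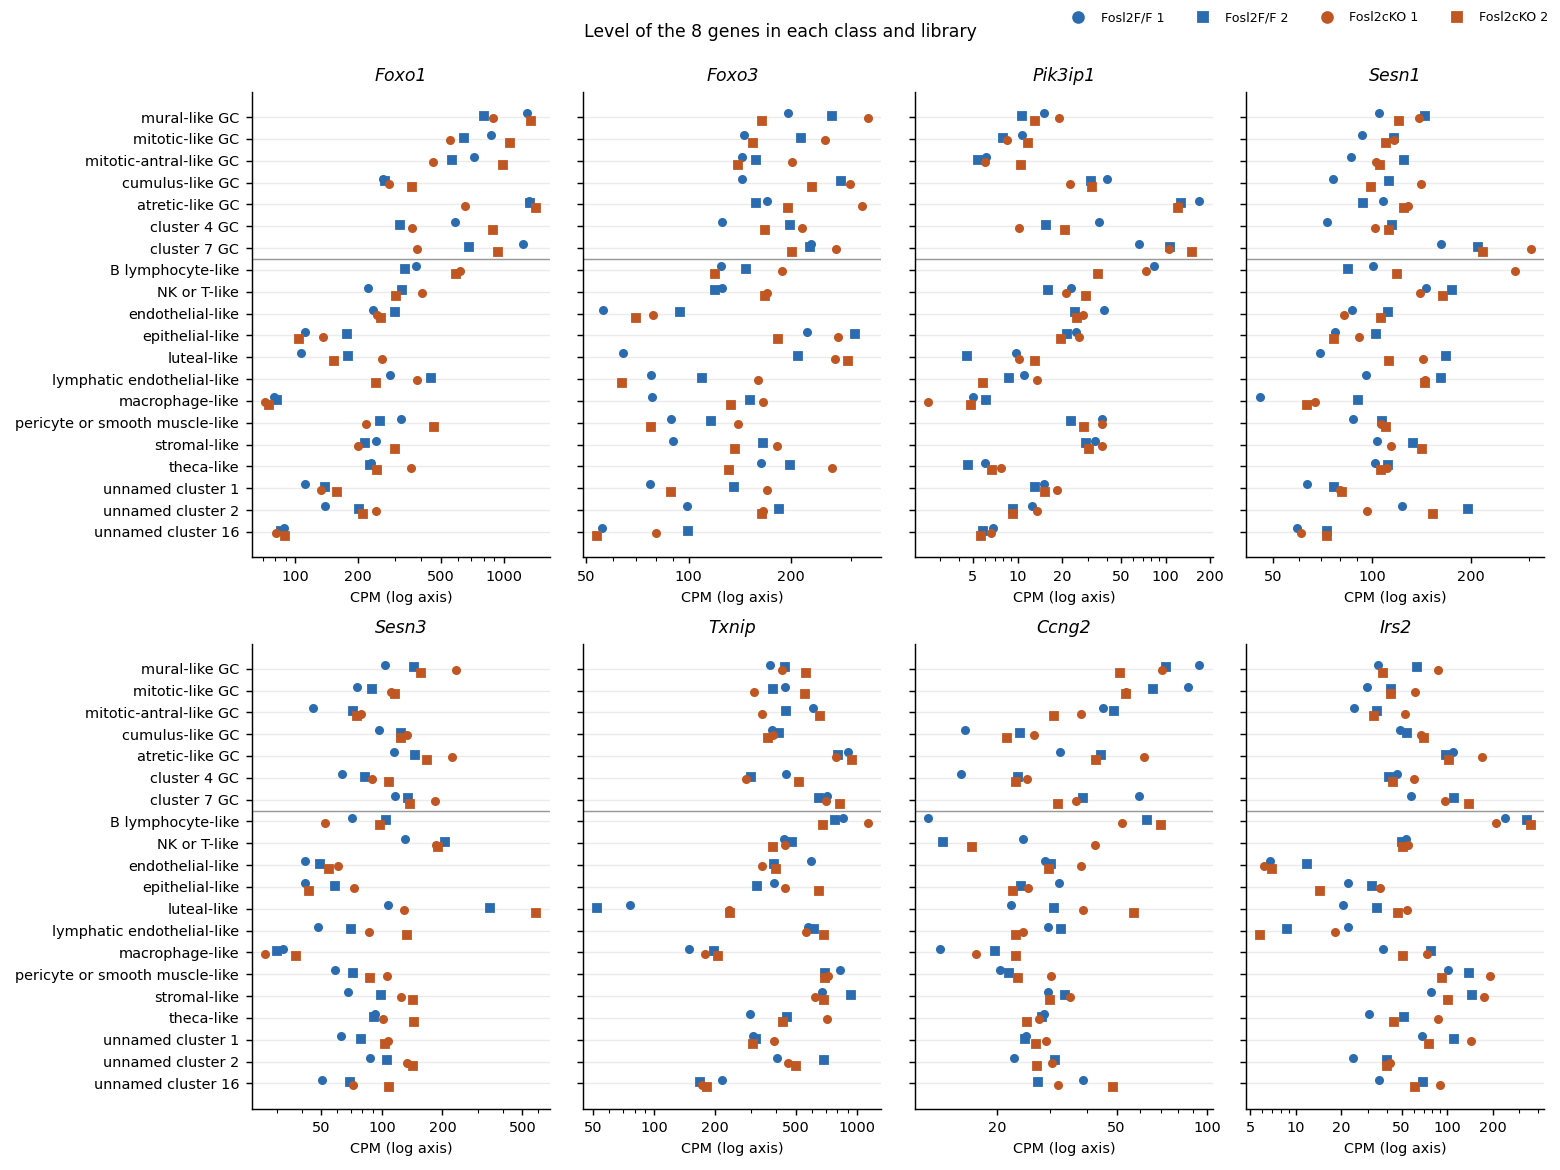
CPM on a log axis (horizontal) of the 8 genes in 20 classes of cells (vertical), 1 point per library, blue for Fosl2F/F and orange for Fosl2cKO, circles for replicate 1 and squares for replicate 2. The grey line separates GC-like states from other classes, and values of 0 are not drawn. Atretic-like cells and cluster 7 hold the highest Pik3ip1 values, the luteal-like class spreads widely for Txnip and Sesn3, and the blue and orange points are mixed in most rows.

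Foxo1, the FOXO gene of granulosa cells, stood at 948, 579, 543 and 1032 CPM in GC-like cells. Among the 20 classes its mean was highest in atretic-like cells, with 1325, 1334, 651 and 1433 CPM, and next in mural-like cells, with 1290, 806, 891 and 1350 CPM. Cumulus-like cells were low in each library, at 263, 268, 281 and 362 CPM, and did not overlap with any other named GC state. Against the other GC-like cells of the same library, the log2 ratio was -1.51 ± 0.37 (SD, n = 4 libraries) in cumulus-like cells, 0.63 ± 0.19 in mural-like cells and 0.72 ± 0.46 in atretic-like cells. Outside granulosa cells the B lymphocyte-like class led, with a mean of 481 CPM, and the lowest class was macrophage-like, at 79.0, 81.6, 71.8 and 74.7 CPM. In the order of the 20 class means, 3 of the 19 steps between neighbours exceeded their pooled SD, those below the B lymphocyte-like, epithelial-like and unnamed cluster 16 classes. The 6 classes ahead of the B lymphocyte-like class were all GC states or clusters, and none of them stood apart from the next beyond the spread.

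The mean of Foxo3 ran from 72.3 CPM in the unnamed cycling cluster 16 to 247 CPM in epithelial-like cells, and 0 of 19 steps exceeded the pooled SD. GC-like cells held 160, 225, 271 and 173 CPM. Mural-like cells held 196, 264, 336 and 165 CPM and cumulus-like cells 143, 280, 297 and 230 CPM, so the states overlapped. Mitotic-antral-like cells were below the other GC-like cells in all 4 libraries, with a log2 ratio of -0.39 ± 0.17, and mitotic-like cells likewise, at -0.17 ± 0.06. Within the controls Foxo3 spanned 143 to 280 CPM in cumulus-like cells alone, so the order of the states is not fixed by these libraries. Oocyte-like barcodes, the cell type in which Foxo3 is best known, held 206, 228, 137 and 245 CPM, but numbered only 17 to 57 per library and were not tested.

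Pik3ip1 was the member with the sharpest state pattern. Atretic-like cells were at 7.67-fold the level of the other GC-like cells of their library, a log2 ratio of 2.94 ± 0.26, higher in 4 of 4 libraries. Cluster 7, the shallow cluster led by Rrad and Dgkb, came next, at 65.8, 107, 105 and 151 CPM and a log2 ratio of 1.73 ± 0.71. The mitotic-like and mitotic-antral-like states lay at the other end. The latter was led by genes of glycolysis and sterol synthesis such as Ldha and Mvd, and each cell-cycle marker was highest in mitotic-like cells. Mitotic-like cells held 10.7, 8.00, 8.42 and 11.7 CPM and mitotic-antral-like cells 6.14, 5.41, 6.04 and 10.5 CPM, with log2 ratios of -2.15 ± 0.12 and -2.40 ± 0.41. Cumulus-like cells, at 39.9, 31.2, 22.6 and 31.9 CPM, lay between, and above the mural-like cells of the same library in 4 of 4 libraries. The gene was kept out of the features that formed the clusters and out of their naming. It is, however, a label of atretic cells in the study of these same cells, so its high level there is not an independent result.

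Irs2, the adaptor that carries insulin and IGF signals to PI3K, was also high in atretic-like cells and low in mitotic-like and mitotic-antral-like cells. Atretic-like cells held 109, 98.4, 169 and 102 CPM, a log2 ratio of 1.28 ± 0.28 to the other GC-like cells. Mitotic-like and mitotic-antral-like cells stood at -0.58 ± 0.18 and -0.81 ± 0.18, both below in 4 of 4 libraries. Outside granulosa cells Irs2 ran from 6.75, 11.8, 6.21 and 6.92 CPM in endothelial-like cells to 243, 337, 209 and 358 CPM in the B lymphocyte-like class, with stromal-like and pericyte or smooth muscle-like cells between at means of 125 and 131 CPM. The B lymphocyte-like class had only 39 to 80 cells per library and was also led by S100a8 and S100a9, which are genes of neutrophils.

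The sestrin genes, whose proteins restrain mTORC1 and act against oxidants, differed from one another. Sesn1 varied little among the named states, whose means lay between 105 and 127 CPM. Its highest value was in cluster 7, at 162, 209, 303 and 218 CPM and a log2 ratio of 0.97 ± 0.24, and mural-like cells stood at 0.19 ± 0.10, above in 4 of 4 libraries. Sesn3 was above the other GC-like cells in both mural-like cells (0.53 ± 0.24) and atretic-like cells (0.57 ± 0.13) and below them in mitotic-antral-like cells (-0.85 ± 0.16), each in 4 of 4 libraries. In luteal-like cells Sesn3 spread from 107 and 128 CPM in the libraries numbered 1 to 346 and 586 CPM in those numbered 2, and the groups overlapped. Luteal-like cells came from cluster 11 and cluster 18, and Fosl2F/F 1 held 56 and 119 cells of these, Fosl2F/F 2 held 839 and 404, Fosl2cKO 1 held 292 and 40 and Fosl2cKO 2 held 236 and 56.

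Txnip, which encodes a protein that binds thioredoxin and curbs glucose uptake, held 899, 809, 783 and 940 CPM in atretic-like cells, above every other named GC state of the same library. The log2 ratio was 0.997 ± 0.14. Mural-like cells held 373, 441, 428 and 559 CPM and mitotic-like cells 442, 383, 310 and 553 CPM, which overlapped. Cluster 7 stood at 0.58 ± 0.17. The few oocyte-like barcodes held 1260, 995, 2057 and 725 CPM, above the atretic-like cells of their library in all but Fosl2cKO 2. Of the 20 classes the highest class mean was that of the B lymphocyte-like class, 861 CPM, beside 858 CPM in atretic-like cells. Pericyte or smooth muscle-like and stromal-like cells followed at 732 and 727 CPM. The lowest class mean was that of luteal-like cells, 150 CPM.

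Ccng2 encodes cyclin G2, an atypical cyclin linked to arrest, and was the only member with positive ratios in both mural-like cells (0.69 ± 0.22) and mitotic-like cells (0.60 ± 0.24) in 4 of 4 libraries. Mural-like cells held 94.1, 72.7, 70.7 and 51.2 CPM and mitotic-like cells 86.5, 65.8, 53.9 and 53.6 CPM. Cumulus-like cells were lowest of the named states, at 15.7, 23.9, 26.5 and 21.6 CPM, a log2 ratio of -1.31 ± 0.51. In atretic-like cells, at 32.4, 44.5, 61.5 and 42.7 CPM, the ratio changed sign between libraries, with a mean of -0.15 ± 0.61. None of its 19 steps between neighbouring classes exceeded the pooled SD.

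**Figure D2:**
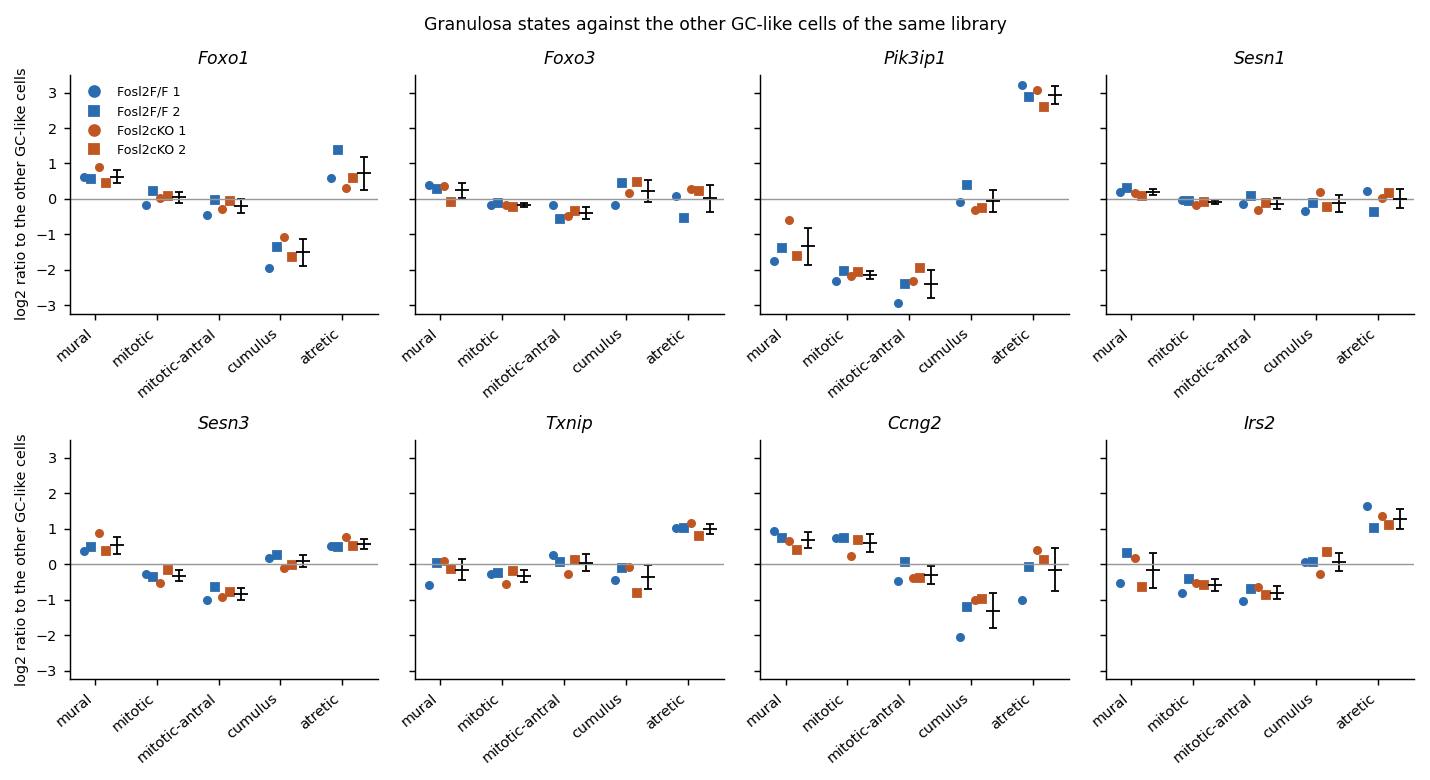
Log2 ratio of a gene's CPM in each named GC state to its CPM in the other GC-like cells of the same library (vertical) for the 5 states (horizontal), 1 point per library, with the mean and SD over the 4 libraries in black. Pik3ip1 is at 2.94 in atretic-like cells and at -2.15 and -2.40 in mitotic-like and mitotic-antral-like cells, Foxo1 and Ccng2 are low in cumulus-like cells at -1.51 and -1.31, and the means of Foxo3 and Sesn1 lie between -0.39 and 0.24.

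Across the 20 class means the members did not form 1 pattern. Pearson's r between pairs of members on log2(CPM + 1) ran from 0.0912 for Sesn3 and Txnip to 0.643 for Sesn1 and Sesn3. Each class sum shares its library with the others, and the classes differ in depth, so these are descriptions. Of the 7726 genes with a mean of at least 20 CPM, those closest to each member were Gatad2b (r = 0.871), Rc3h1 and Strn for Foxo1, Fam234a (0.928), Trappc10 and Ranbp9 for Foxo3, and Rnpc3 (0.787), Cop1 and Map2k5 for Pik3ip1. For Sesn1 they included Hbp1 (0.852) and Trmt1l, for Sesn3 they were Ttc5 (0.893), Akirin2 and Ube3a, and for Txnip Rps6ka5 (0.718), Atf7 and Hbp1. Irs2 was closest to Ftx (0.713), Elmsan1 and Zfp397. The genes closest to Ccng2 were Inhba (0.779), Gmcl1 and Cyp19a1 (0.721), of which Inhba and Cyp19a1 were among the markers used to name mural-like cells. Cyp19a1 itself was uneven between libraries, at 218, 57.8, 33.5 and 43.7 CPM in GC-like cells, highest in Fosl2F/F 1, the library with the largest mural-like share.

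The comparison of conditions asked whether loss of Fosl2 in granulosa cells moved the module. In GC-like cells 0 of the 8 members passed edgeR's quasi-likelihood test, with the threshold set at 0.1 for the adjusted p and 0.25 for the size of the log2 fold change, and 1 had an unadjusted p under 0.05. Among all 17271 genes tested there the percentage called was 0.00579, which is the single gene Plb1, named after its value was seen. Foxo1 changed by a log2 fold of 0.01 ± 0.38 (SE), with the control libraries at 948 and 579 CPM and the others at 543 and 1032 CPM, so both controls lay between the others. For Foxo3 the estimate was 0.18 ± 0.25, for Pik3ip1 -0.11 ± 0.30, for Sesn1 0.14 ± 0.17, for Txnip 0.06 ± 0.25 and for Ccng2 -0.32 ± 0.21, all with overlapping libraries. In simulated data of the same size the test found 99% of 4-fold changes but 63% of 2-fold changes in GC-like cells. The simulated spread followed the fitted trend over genes and many changed genes were planted, so these rates may be too high for the members. In the real data the immediate early gene Jund, at a log2 fold of 1.75 ± 0.57, did not pass (adjusted p = 0.980 in edgeR). It held 217, 233, 322 and 1208 CPM, so its estimate came mostly from Fosl2cKO 2. Changes below 2-fold were thus often not detectable. Larger estimates may also not pass where the libraries of a group differ widely, as for Jund.

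Sesn3 and Irs2 were the members whose GC-like libraries did not overlap. Sesn3 held 85.9, 108, 143 and 125 CPM, higher in both libraries labelled Fosl2cKO, by a log2 fold of 0.44 ± 0.17 (unadjusted p = 0.0404, adjusted p = 0.9997 in edgeR). Irs2 held 46.6, 52.7, 78.7 and 57.0 CPM, higher by 0.42 ± 0.20 (unadjusted p = 0.0722), and by 0.20 without Fosl2cKO 1. Of all genes tested in GC-like cells, 17% had both libraries labelled Fosl2cKO above both controls and 14.6% had them below, so 2 of 8 in the first direction and 0 of 8 in the second lie near that background. With equal weight for the 5 named states in place of their differing shares, the mean was 86.9, 115, 156 and 128 CPM for Sesn3 and 49.2, 58.6, 87.6 and 57.1 CPM for Irs2. By that mean the Irs2 libraries overlapped and those of Sesn3 did not.

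By state, 0 of 8 members passed in mural-like cells (0.0157% of all genes called), mitotic-like cells (0.00684%), mitotic-antral-like cells (0.00817%), cumulus-like cells (0.0076%), atretic-like cells (0.00771%), cluster 4 (0.00801%) and cluster 7 (0.0113%). At an unadjusted p under 0.05 there were 2 members in mitotic-like cells, 1 in mitotic-antral-like cells and 0 in the others, beside 996 of 14615 and 1229 of 12236 of all genes in those 2 states. The called gene was Plb1 in each of these, with Igfbp2 in mural-like cells. Sesn3 lay higher in both libraries labelled Fosl2cKO in mural-like cells, at 104, 145, 234 and 157 CPM, and in atretic-like cells, at 115, 147, 224 and 167 CPM. The log2 fold changes were 0.60 ± 0.27 and 0.51 ± 0.22 (unadjusted p = 0.0597 and 0.0572). In mitotic-like cells it held 74.9, 89.6, 112 and 116 CPM, a fold of 0.45 ± 0.16 (unadjusted p = 0.0288, adjusted p = 0.656 in edgeR). The lower control in each of these 3 states was Fosl2F/F 1. Without Fosl2cKO 1 the Sesn3 estimates were 0.30 in mural-like and 0.29 in atretic-like cells.

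Ccng2 ran the other way in 3 states. Mitotic-like cells held 86.5, 65.8, 53.9 and 53.6 CPM, without overlap, but the log2 fold change of -0.53 ± 0.19 did not pass (unadjusted p = 0.0273, adjusted p = 0.651 in edgeR). Mitotic-antral-like cells held 44.9, 49.2, 38.0 and 31.1 CPM (-0.50 ± 0.20, unadjusted p = 0.0344). Mural-like cells held 94.1, 72.7, 70.7 and 51.2 CPM (-0.51 ± 0.24, unadjusted p = 0.0715), where Fosl2F/F 2 and Fosl2cKO 1 were nearly equal. The summed granulosa markers were also lower in both libraries labelled Fosl2cKO in these states. They were 22494, 15874, 13007 and 15153 CPM in mural-like, 15810, 11764, 10159 and 10423 CPM in mitotic-like and 15797, 11348, 10095 and 11267 CPM in mitotic-antral-like cells. The summed luteal markers were lower in mitotic-like cells, at 1596, 1303, 1070 and 940 CPM, and in mitotic-antral-like cells. Fosl2F/F 1, the highest library for Ccng2 in mural-like and mitotic-like cells, was also the highest for Cyp19a1 (218 CPM in GC-like cells), and the part of these in the Ccng2 differences was not tested. Without Fosl2F/F 1 the Ccng2 estimates were -0.29 in mural-like and in mitotic-like cells. Cumulus-like and atretic-like cells had positive estimates with overlapping libraries, 0.23 ± 0.26 and 0.38 ± 0.25, which shrank to 0.00031 without Fosl2F/F 1 and to 0.099 without Fosl2cKO 1. The share of all genes with both libraries labelled Fosl2cKO below both controls was 16.5% in mitotic-like, 16.9% in mitotic-antral-like and 11.8% in mural-like cells, against 1 of 8 members in each. In the other direction it was 19.6%, 26.1% and 20.1%, again against 1 of 8 members, Sesn3.

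In the atretic-like state 5 of the 8 members had their highest mean among the named states. For Foxo1 (1186 CPM, and 1084 CPM in mural-like cells) and Sesn3 (163 and 160 CPM) the step was within the spread. Between conditions this state had 3 members higher without overlap, Foxo3, Sesn1 and Sesn3, where 23.4% of all genes were, and 1 lower, Pik3ip1, where 12.7% were. Foxo3 held 169, 157, 322 and 196 CPM there (0.58 ± 0.28, unadjusted p = 0.0740), and the estimate was 0.19 without Fosl2cKO 1 and 0.90 without Fosl2cKO 2. Pik3ip1 held 169, 126, 122 and 121 CPM, a log2 fold change of -0.37 ± 0.23 (unadjusted p = 0.152), in which Fosl2F/F 2 lay next to the libraries labelled Fosl2cKO, and -0.07 without Fosl2F/F 1. In cumulus-like cells Foxo1 and Irs2 were higher without overlap and 0 members were lower, where 18.7% and 12% of all genes were.

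**Figure D3:**
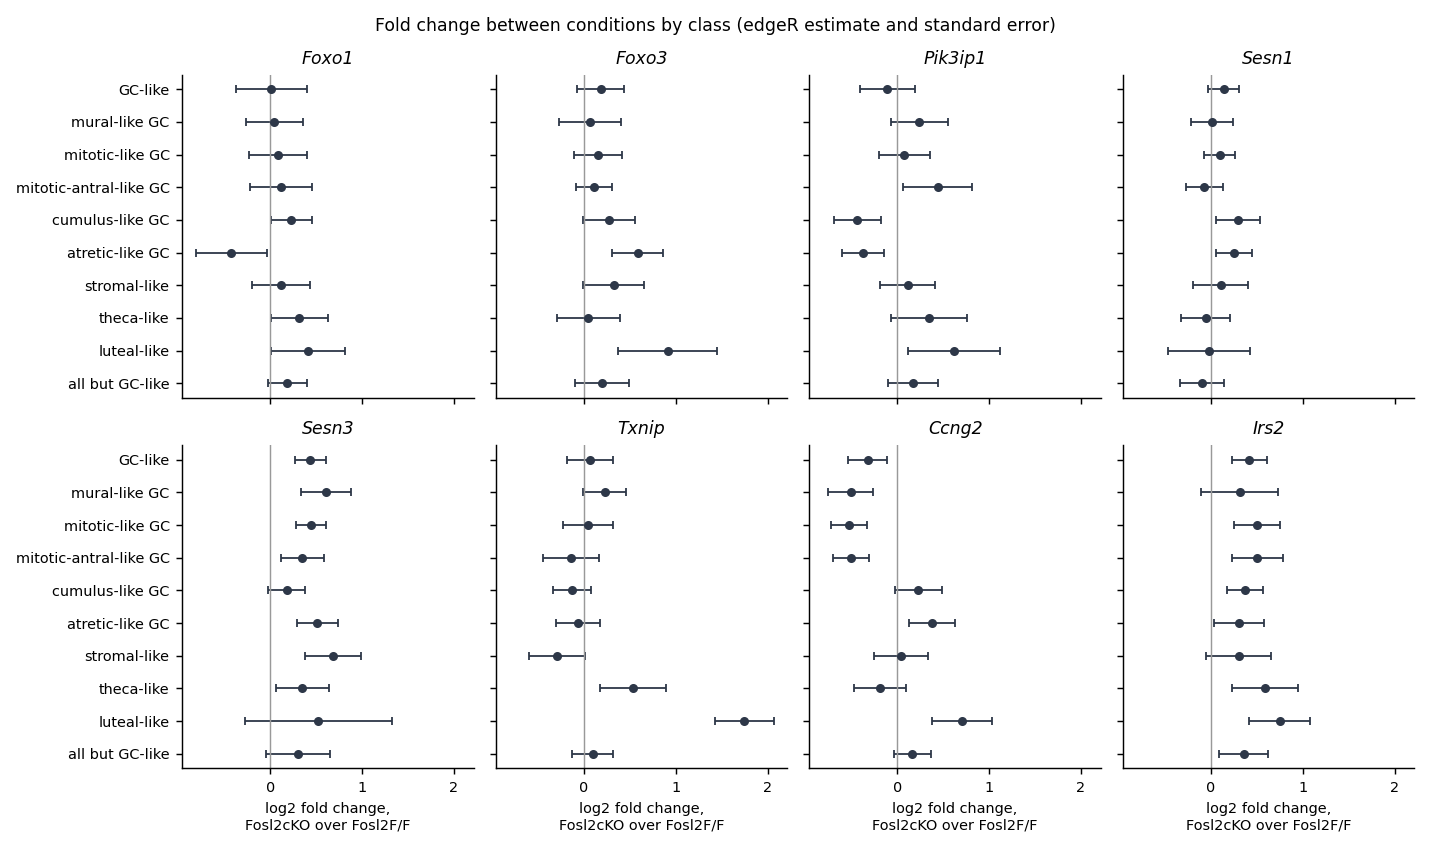
Log2 fold change of the libraries labelled Fosl2cKO over Fosl2F/F (horizontal) for the 8 genes in GC-like cells, the 5 named GC states and 4 other sets of cells (vertical), as the edgeR estimate with its standard error (bars) from 2 libraries a group. Estimates lie mostly between -0.5 and 0.7, and Txnip in luteal-like cells, at 1.75, is farthest from 0.

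Whether a condition effect differed between states was tested on the difference itself, with limma on within-library differences of log2 CPM. Of the 8 members 0 passed between mural-like and atretic-like cells, between mural-like and cumulus-like cells, or between GC-like and stromal-like cells, where 0, 1 and 0 of all genes passed and 394, 321 and 492 had an unadjusted p under 0.05. The effect on Ccng2 in mural-like cells was lower than in atretic-like cells by -0.86 ± 0.28 on the log2 scale (unadjusted p = 0.0180, adjusted p = 0.999) and lower than in cumulus-like cells by -0.76 ± 0.31 (unadjusted p = 0.0420). That of Pik3ip1 was higher in mural-like than in atretic-like cells by 0.59 ± 0.25 (unadjusted p = 0.0481). All 3 depended on single libraries. Without Fosl2F/F 1 the first was -0.50 (adjusted p = 0.312 in limma), and without Fosl2F/F 2 it was -1.22 (adjusted p = 0.0387), when 464 genes were called in all. The Ccng2 difference from cumulus-like cells was -0.30 without Fosl2F/F 1 and -1.22 without Fosl2F/F 2. That of Pik3ip1 was 0.33 without Fosl2cKO 1 and 0.86 without Fosl2cKO 2. In each of these fits the lone library of a group is assumed to vary like the other group.

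Outside granulosa cells 0 of the tested members passed in any whole class. The percentage of all genes called was 0.114 in B lymphocyte-like, 0.485 in NK or T-like, 0.213 in endothelial-like, 0.116 in epithelial-like, 0 in lymphatic endothelial-like, 0.271 in macrophage-like, 0.0742 in pericyte or smooth muscle-like, 0.213 in stromal-like and 0.0626 in theca-like cells. It was 0.0292 in unnamed cluster 1, 0.126 in unnamed cluster 2, 0.0956 in unnamed cluster 16, 0.0156 in luteal-like cells, 0.0417 in all but GC-like cells and 0.00492 in all cells together. Of 196 tests of a member in a class, the luteal-like clusters on their own included, 11 had an unadjusted p under 0.05. Luteal-like cluster 18 gave 4 of the 11, where 2177 of 10590 genes in all were at that level. For stromal-like, pericyte or smooth muscle-like and luteal-like cells, with 1 each, these counts over all genes were 609 of 14113, 472 of 12127 and 1388 of 12836. Sesn3 accounted for some of them, with 67.8, 98.5, 125 and 142 CPM in stromal-like cells (0.68 ± 0.31, unadjusted p = 0.0395) and 58.5, 71.9, 106 and 87.3 CPM in pericyte or smooth muscle-like cells (0.54 ± 0.25, unadjusted p = 0.0497).

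Counted over the 20 classes that share no cells, Sesn3 was higher in both libraries labelled Fosl2cKO in 14 and lower in 0, and the other 7 members were higher in 21 of their pairs of member and class. Together 35 of 160 pairs were higher and 9 lower, where 20.1% and 13.6% of all genes over the same classes were. Classes of 1 library share its preparation and depth, so the 14 are not independent observations. Fosl2F/F 1 was the lowest library for Sesn3 in each of the 14 but theca-like cells.

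Txnip in luteal-like cells, the progesterone-producing cells of the corpus luteum, gave the largest estimate of any member between conditions. It held 76.3, 52.2, 234 and 237 CPM, without overlap, a log2 fold change of 1.75 ± 0.32 (unadjusted p = 0.0015), and missed the threshold with an adjusted p of 0.256 in edgeR. With DESeq2 it passed (log2 fold change 1.78, adjusted p = 6.08e-04), where DESeq2 called 442 genes in this class and edgeR 2. Other levels of the class moved with condition too. The summed luteal markers were 19311, 16466, 8484 and 11817 CPM, lower in both libraries labelled Fosl2cKO. The theca markers were 295, 680, 1553 and 1092 CPM and a list of immediate early and heat shock genes 7538, 9864, 14045 and 18481 CPM, both higher. Inha was at 3.86%, 5.94%, 14.6% and 8.06% of its GC-like level, also higher, and the part of these in the Txnip difference was not tested. Of all genes in that class 29.5% had both libraries labelled Fosl2cKO above both controls and 17.9% below, where 5 of 8 members (Foxo3, Pik3ip1, Txnip, Ccng2 and Irs2) were above and 0 below. Foxo3 among these held 64.3, 209, 269 and 293 CPM, so Fosl2F/F 2 lay nearer to the libraries labelled Fosl2cKO than to Fosl2F/F 1. The luteal-like class joins cluster 11 and cluster 18 in unlike shares, so each was also tested alone, an alternative added after the data were seen. In cluster 11, where Fosl2F/F 1 had 56 cells with a median of 1553.5 UMIs, Txnip held 136, 42.4, 236 and 224 CPM (1.41 ± 0.67, adjusted p = 0.900 in edgeR), and 0 of 8 members passed where 0.0161% of all genes did. In cluster 18 it held 73.7, 89.3, 215 and 345 CPM (1.71 ± 0.35, adjusted p = 0.00348 in edgeR). Foxo3 passed there too, at 65.1, 148, 353 and 221 CPM (1.35 ± 0.39, adjusted p = 0.0390 in edgeR), but 11.4% of all genes were called in that cluster. The count of called genes there fell to 0 when either library labelled Fosl2cKO was left out, which had 40 and 56 cells in it. The median UMIs per cell there were 22977 in Fosl2F/F 1 and 4994 to 9226 in the other libraries, and the part of depth in these calls was not tested. Without integration the cluster led by Akr1c18 and Onecut2, as cluster 18 was, held 115, 342, 8 and 9 cells. The one led by Ces2a, as cluster 11 was, held 3, 895, 322 and 301 cells. Which cells are compared in either cluster thus depends on integration, and its part in these calls was not tested.

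**Figure D4:**
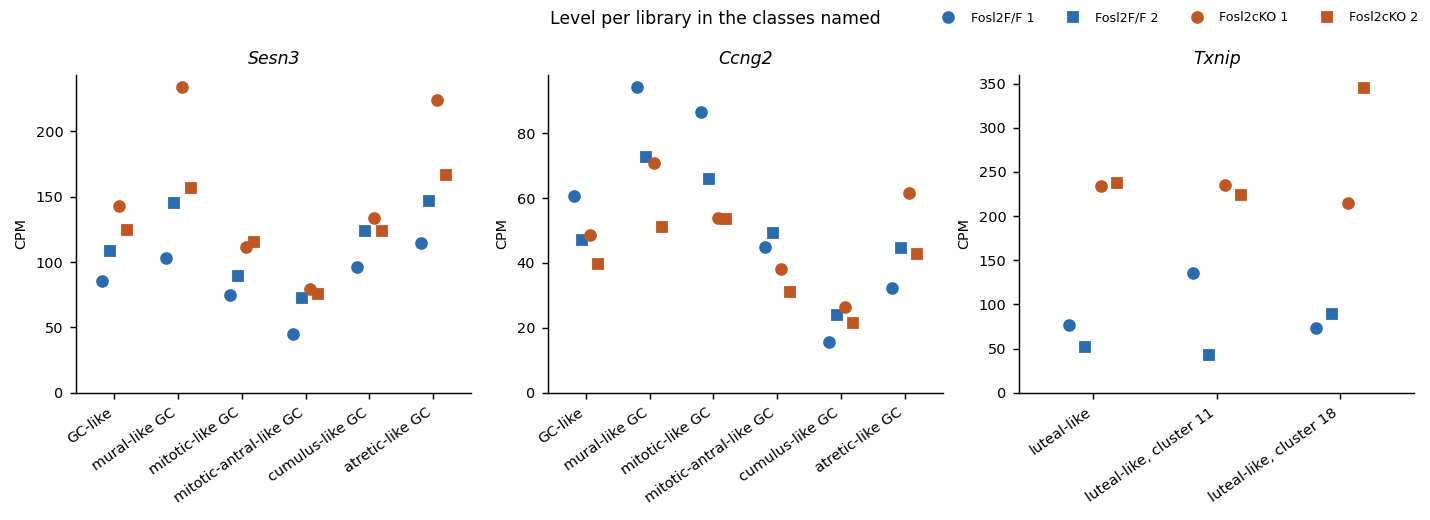
CPM (vertical) per library of Sesn3 and Ccng2 in GC-like cells and the 5 named states and of Txnip in luteal-like cells and their clusters (horizontal), 1 point per library, with the axis starting at 0. Sesn3 is higher in both orange points in each state but cumulus-like, Ccng2 is lower in mural-like, mitotic-like and mitotic-antral-like cells, and luteal-like Txnip is at 234 and 237 CPM against 76.3 and 52.2 CPM.

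The genes around the module were read from lists of FOXO regulators (34 genes), FOXO targets of the cell cycle and survival (22), FOXO targets of metabolism, stress and autophagy (22) and genes of dissociation stress (16). The last of these holds immediate early genes and also heat shock genes such as Hspa1a and Dnajb1, and is called the immediate early list. In GC-like cells 0 genes of any list passed in edgeR. The regulators had a median log2 fold change of 0.12 over 34 genes, with 1 at an unadjusted p under 0.05. The cell cycle targets had 0.04 over 22 genes with 5, and the metabolic targets -0.09 over the 20 genes tested with 3. The immediate early list had -0.07 over 16 genes with 2. Over all genes the median was -0.02, and 827 of 17271 genes were at that p. Of the regulators Sgk1, an AKT-like kinase, held 78.6, 75.1, 62.0 and 43.0 CPM (-0.58 ± 0.21). Skp2, part of a ubiquitin ligase, held 39.5, 44.7, 56.5 and 53.2 CPM (0.35 ± 0.16), and Akt1, Sirt2 and Mtor lay at 0.26, -0.15 and -0.11. Without overlap Sgk1 and Sirt2 were lower and Skp2 and Akt1 higher, where 14.6% and 17% of all genes were, and these genes were named for the size of their estimates.

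Among the cell cycle and survival targets Btg1, an antiproliferative gene, held 111, 122, 186 and 186 CPM (0.65 ± 0.15, unadjusted p = 0.00437, adjusted p = 0.642 in edgeR) and Bcl6, a repressor, held 17.7, 20.9, 31.8 and 46.5 CPM (0.9995 ± 0.24). Klf2 at 37.5, 22.4, 35.2 and 143 CPM was high in Fosl2cKO 2 only, and Jund of the immediate early list was also highest there, at 217, 233, 322 and 1208 CPM. Ddit4, Gadd45a and Cdkn2d had negative estimates of -0.57, -0.33 and -0.12. The metabolic targets spread from Bnip3, a mitophagy gene with 163, 96.7, 79.9 and 65.8 CPM (-0.88 ± 0.28), to Pink1, another, with 15.4, 16.4, 21.8 and 40.5 CPM (0.94 ± 0.31). Between them lay Selenop and Map1lc3b at -0.26 and -0.24 and Fbxo32 and Pdk4 at 0.41 and 0.39. For genes of the immediate early list, which dissociation can raise, the estimates were -0.44 for Ier2, 0.46 for Dusp1 and 0.36 for Zfp36. Its heat shock genes Hspa1a and Dnajb1 were at -0.58 and -0.35. None of these passed the threshold. The summed level of the whole immediate early list in GC-like cells was 9343, 8778, 8580 and 9527 CPM, with overlapping groups.

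In other classes Btg1 rose in NK or T-like cells, from 580 and 642 to 1212 and 1437 CPM (1.05 ± 0.22, adjusted p = 0.0590 in edgeR), and Klf2 in stromal-like cells, from 76.6 and 66.3 to 152 and 272 CPM (1.55 ± 0.33, adjusted p = 0.0991). Ier3, an immediate early gene, fell in the B lymphocyte-like class, from 421 and 696 to 125 and 105 CPM (-2.33 ± 0.38, adjusted p = 0.0526). Over all classes, where a gene counts once per class, the regulators gave 2 calls up and 0 down in 797 tests. The cell cycle targets gave 7 up and 1 down in 485, the metabolic targets 0 up and 1 down in 424, and the immediate early list 4 up and 3 down in 397. Apart from the 3 genes just named, all of these calls were in luteal-like cluster 18, where 11.4% of all genes were called. Among them Pik3r3 (1.56), Ccnd2 (1.90), Bbc3 (1.71), Btg1 (1.44), Bcl6 (1.53) and Klf2 (3.13) rose there and Trp53inp1 (-1.20) and Fbxo32 (-1.14) fell, on the log2 scale. Of the immediate early list Jund (2.35), Zfp36 (1.56), Dusp1 (1.22) and Nr4a1 (1.11) rose and the heat shock genes Hspa1b (-1.36) and Hspa1a (-1.22) fell.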

How the data were processed

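Single-cell RNA-seq libraries of whole ovary were deposited as UMI counts per gene and barcode, which the authors made with Cell Ranger on GRCm38; the methods also name CellBender, and whether it is in the deposited counts is not stated. The filters applied here were a minimum of 500 genes and 1000 UMIs per cell and a maximum of 10% mitochondrial and 0.1% haemoglobin UMIs. Scrublet (scanpy 1.11.5) then removed 0.8% of cells per 1000 cells as doublets. That rule took out 7.01%, 19.4%, 5.74% and 6.00% of the cells that passed the filters, the most in Fosl2F/F 2. Cells were normalised with sctransform 0.4.2 and integrated and clustered in Seurat 5.3.0 (3000 features, 30 dimensions, resolution 0.8, and 0.5 for GC-like cells), without the 8 genes or the pathway lists among the features. Clusters were named from marker lists, and the limits of the naming rule were set after the clusters were seen. The members and lists were chosen with earlier results of these data known.

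Counts were summed per class and library (at least 20 cells in each) and tested with edgeR 4.0.16 (quasi-likelihood, TMM, filterByExpr, R 4.3.3), with Benjamini-Hochberg adjustment over all genes of the class. The threshold was 0.1 for the adjusted p together with 0.25 for the absolute log2 fold change. Errors of fold changes are standard errors, and those of state ratios are SDs over 4 libraries. Differences between classes were tested with limma 3.58.1 on within-library differences of log2 CPM (prior count 2). The tests were tested on simulated data. Named beside the members were list genes past the threshold, the 3 with the largest rise and fall per list in GC-like cells at a mean of at least 20 CPM, and the 3 genes closest to each member, of which some are not reported here. Alternatives were DESeq2 1.42.0, other size factors, filters and clusterings, a replicate block and leaving out each library. Oocyte-like barcodes were not tested, since 1 library held only 17.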

Additional observations from a re-analysis of the deposited data

Results flagged for a closer look

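For 3 members the classes disagreed in direction, in that both libraries labelled Fosl2cKO lay above both controls in some classes and below them in others. Over the 20 classes 20.1% of all pairs of gene and class were higher and 13.6% lower without overlap. The differences between these classes were not tested except where the report gives the test. Ccng2 gave 18 such pairs of classes, being higher in luteal-like, pericyte or smooth muscle-like and unnamed cluster 1 cells and lower in lymphatic endothelial-like, theca-like, mitotic-like, mitotic-antral-like and mural-like cells and GC cluster 7. Pik3ip1 gave 6 pairs, higher in luteal-like, theca-like and unnamed cluster 1 cells and lower in macrophage-like and atretic-like cells. Foxo1 gave 4 pairs, higher in B lymphocyte-like, theca-like, unnamed cluster 2 and cumulus-like cells and lower in macrophage-like cells, where its levels were 79.0, 81.6, 71.8 and 74.7 CPM.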

How the results depend on the processing

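Of 310 counts of members past the threshold under an alternative, 5 were above 0. In luteal-like cells 1 member, Txnip, passed with DESeq2 (adjusted p = 6.08e-04) and 1 without the gene filter (adjusted p = 6.31e-04), and 2 passed in cluster 18 alone. In GC cluster 7, 2 members passed when more doublets were removed. With a library left out, a member also passed in GC cluster 4 (without Fosl2cKO 2). The same held for the difference between mural-like and atretic-like cells (without Fosl2F/F 2). The shares of all genes called in these fits of GC cluster 7 and GC cluster 4 are not given here. Those member counts therefore have no background beside them. Of 1120 fold changes 73 took the other sign, and 1 of these belonged to groups that did not overlap, Foxo1 in cumulus-like cells, whose leave-one-out values ran from -0.00139 to 0.43, the lowest without Fosl2cKO 2. Of 424 state ratios 411 moved by less than the SD, 12 by more, and 1 that had the same sign in all 4 libraries reversed, Sesn1 in mitotic-like cells at 0.0046 with RLE size factors. Ratios whose sign already differed between libraries could cross 0 too, as Foxo3 in atretic-like cells did, which kept its sign under 5 of 10 alternatives. The causes were not tested. Counts over all genes depended on the tool. GC-like cells had 1 gene called by edgeR, 173 by DESeq2, 270 without the gene filter and 0 to 139 with a library left out, and luteal-like cells had 2 by edgeR, 442 by DESeq2 and 1082 without the gene filter. The 5 named states had 1 to 2 by edgeR, 45 to 172 by DESeq2 and 237 to 694 without the gene filter. Without integration no value could be had for mural-like and atretic-like cells, since at least 1 library held under 20 cells of each. The mural-like cluster then held 1488, 11, 2 and 15 cells, nearly all from Fosl2F/F 1. The clusters named atretic-like held 898, 7, 0 and 32 cells and 19, 8, 170 and 612 cells. An unnamed GC-like cluster led by Plb1 and Prss35 held 0, 9, 329 and 314 cells. The values of both states thus rest on integration, and its part in them was not tested.

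Same-numbered libraries did not deviate together (correlation -0.357 over 7121 genes in GC-like cells). Within a group of a pair of libraries the deviations are opposite, so libraries of unlike number deviated together to the same degree. The value therefore does not show that the libraries vary independently across groups. What the libraries of unlike number share was not tested. With the replicate as a block the fold change of Foxo1 in GC-like cells was -0.02, 0 members passed in any class, and 30 genes were called in GC-like cells.

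With 2 libraries a group and the shallow Fosl2F/F 2, the test found 23% to 67% of simulated 2-fold changes, depending on the class.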
